A study of Mus musculus with 16 samples.

Results

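Mouse embryonic stem cells grown with 150 µM nickel chloride for 4 days were compared with untreated cells of the same day. The comparison held the 4 libraries that the labels title 150 µM nickel or control on day 4, 2 per group, of 16 in the series. It was read over all 26239 genes of the authors' deposited table, of which 19470 had a test. Both groups were E14Tg2A cells of wild-type genotype, an established feeder-independent line, so every library comes from 1 cell line. During exposure the medium was DMEM with fetal bovine serum and LIF, a cytokine that keeps such cells undifferentiated. Cells were passaged every 2 days, and NiCl2 was renewed at each passage. Untreated cells were kept in parallel under the same conditions without the salt. Other groups received 100 or 200 µM NiCl2, or were collected on day 6. Polyadenylated RNA was sequenced with a strand-specific kit. The series title asks whether nickel relieves epigenetic repression of developmental genes.

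Nickel is a carcinogenic metal that can take the place of iron in dioxygenases, the enzymes that use iron, oxygen and 2-oxoglutarate. This enzyme class includes the prolyl hydroxylases that mark the hypoxia factor HIF for destruction, the JmjC histone demethylases and the TET DNA oxidases. When HIF is not hydroxylated it accumulates and switches on genes of glucose uptake, glycolysis and collagen modification. ATF4 is the transcription factor of the amino acid response, and its targets import amino acids, make serine and charge tRNAs.

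All RPKM values (read counts scaled to transcript length and library size), log2 fold changes and adjusted p-values below are those of the authors' deposited table. It gives 1 RPKM per group and none per library, so the overlap of single libraries cannot be shown. A log2 fold change is nickel over control, and ± gives a standard error worked back from the authors' p-value. A gene was called changed at an adjusted p under 0.05. The labels do not say that replicates A and B are separate cultures, and the spread behind the p-values may therefore be technical. In bulk RNA, fewer cells of a type and less RNA per cell cannot be told apart. The spacing of low RPKM values among 1490 single-exon genes gave library depths of 45.1 M and 53.0 M reads in nickel and of 43.2 M and 51.1 M reads in control. The labelled cell type was checked on markers. All 10 embryonic stem cell markers were detected, summing to an RPKM of 7216 in nickel and 6207 in control, with 4 called higher and 2 lower. Of 7 fibroblast or feeder markers, 4 (Col3a1, Dcn, Lum and Postn) were listed at 0 in both groups, and the sum was 6.59 in nickel and 11.3 in control, mostly from Thy1.

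At 150 µM on day 4, 1315 of the 19470 tested genes were called, 6.75% of them. Higher in nickel were 669 genes (3.44%) and lower were 646 (3.32%). Most changes were small: the median log2 fold change was 0.44 among genes called higher and -0.55 among those called lower. Changes of 2-fold or more were called in 309 genes (1.59%), 119 higher (0.611%) and 190 lower (0.976%). Size went with expression level. Among genes with a mean RPKM over 100, 72 were called higher and 46 lower, with median log2 fold changes of 0.32 and -0.25. Between 0.1 and 1, 39 were called higher and 89 lower, with medians of 2.04 and -2.0, at a median implied error of 0.80 against 0.06 above 100. Of 11764 tested genes with a mean RPKM of at least 1, 9.91% were called. Across them the median log2 fold change was 0.0040. Scaling between libraries brings this median near 0, so a shift common to all genes could not be seen. At very low levels, reads could be counted back for single-exon genes, whether called or not. In nickel, 104 of these had 2 or more reads, and in 73 of them every read came from 1 library. In control this held for 80 of 89 such genes. Of genes with exactly 2 reads in nickel, 31 had both in 1 library and 2 had 1 in each. In control these numbers were 19 and 0. Whether mates of a read pair were counted as separate reads was not tested, so these counts do not measure how far the replicates differed.

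**Figure D1:**
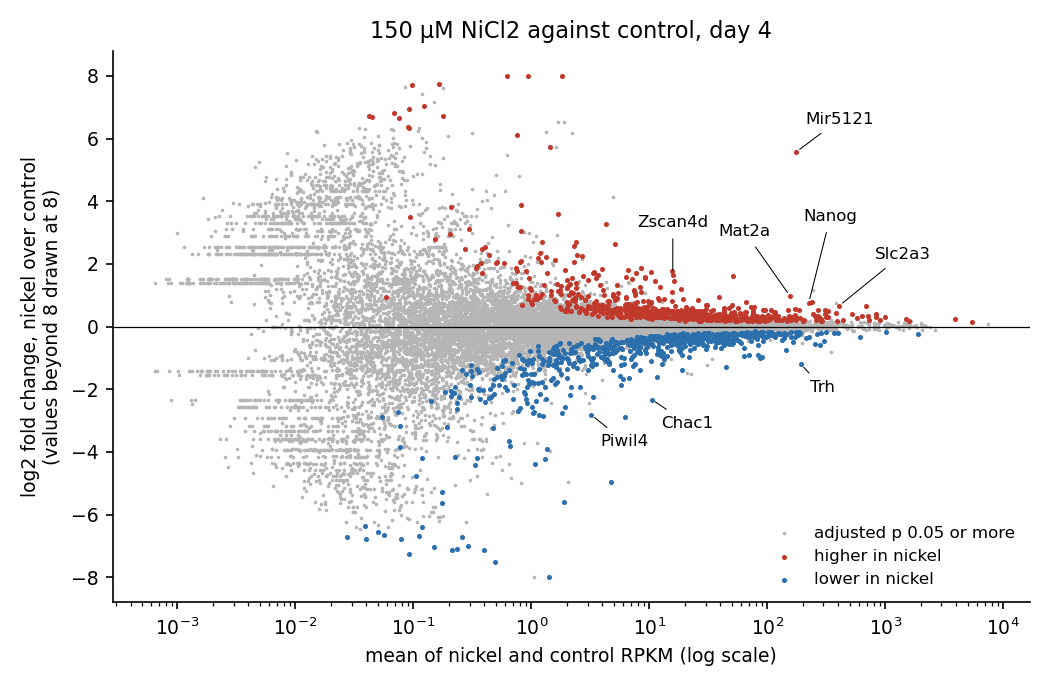
Each point is 1 tested gene, with the mean of its nickel and control RPKM on the horizontal log axis and the authors' log2 fold change, nickel over control, on the vertical axis. Red points are the 669 genes higher and blue points the 646 genes lower in nickel (adjusted p under 0.05), and the called points fan out towards low expression.

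Genes of glucose uptake, glycolysis and lactate export were higher in nickel. Of 25 tested genes of this list, all with a mean RPKM of at least 1, 13 rose, against 3.44% of all genes, and 0 fell. Among all 11764 tested genes with a mean RPKM of at least 1, 620 rose. The median log2 fold change of the list was 0.28, against 0.0027 over all tested genes. The glucose transporter gene Slc2a1, at chr4:119108745-119137329 (GRCm38), had an RPKM of 300 in nickel and 177 in control (0.80 ± 0.05, adjusted p = 3.4e-47 in the authors' deposited table). Slc2a3, the neuronal-type glucose transporter gene, stood at 496 in nickel and 321 in control (0.67 ± 0.04, adjusted p = 2.0e-47 in the authors' deposited table). Slc16a3 encodes the lactate exporter MCT4, and its RPKM was 51.0 in nickel and 27.1 in control (0.95 ± 0.08, adjusted p = 1.7e-26 in the authors' deposited table). These 3 membrane transporters, at both ends of the pathway, had the largest changes of the list. For Pfkl, liver-type phosphofructokinase, RPKM was 125 in nickel and 89.3 in control (0.52 ± 0.06 in the authors' deposited table). Lactate dehydrogenase A (Ldha) stood at 941 in nickel and 736 in control (0.39 ± 0.06), and triose phosphate isomerase (Tpi1) at 297 in nickel and 242 in control (0.33 ± 0.06), in the authors' deposited table. Glucose phosphate isomerase (Gpi1) did not pass, at 132 in nickel and 134 in control. Pfkp, the platelet-type phosphofructokinase gene, did not pass either, at 104 in nickel and 102 in control.

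Of 37 further hypoxia genes 10 rose and 3 fell, with a median log2 fold change of 0.18. Egln3, a HIF prolyl hydroxylase that is itself a HIF target, had an RPKM of 15.2 in nickel and 8.36 in control (0.90 ± 0.14, adjusted p = 1.8e-08 in the authors' deposited table). Enzymes that modify collagen were among the risers. Plod2, a lysyl hydroxylase, stood at 35.6 in nickel and 24.6 in control (0.57 ± 0.07, authors' deposited table). The prolyl 4-hydroxylase subunit genes P4ha1 (20 in nickel, 14.6 in control) and P4ha2 (12.2 in nickel, 7.72 in control) rose by 0.50 ± 0.09 and 0.70 ± 0.17 in the authors' deposited table. The mitophagy gene Bnip3 had 59.8 in nickel and 44.7 in control (0.46 ± 0.10, authors' deposited table). Kdm3a, an H3K9 demethylase gene and HIF target, had 55.2 in nickel and 47.3 in control (0.32 ± 0.06, authors' deposited table). The transferrin receptor gene Tfrc had 89.5 in nickel and 72.9 in control (0.34 ± 0.06, authors' deposited table). The 3 that fell included known HIF targets too: Ndrg1 had 4.17 in nickel and 6.95 in control (-0.70 ± 0.17), and Bhlhe41 had 0.0797 in nickel and 0.360 in control (-2.13 ± 0.57), in the authors' deposited table. Hmox1, the haem oxygenase gene, was the third, at 37.3 in nickel and 47.8 in control (-0.32 ± 0.10, authors' deposited table). Vegfa, the angiogenic growth factor gene, did not pass, at 18.0 in nickel and 16.2 in control. Transcripts of Hif1a itself stood at 22.9 in nickel and 26.8 in control (-0.19 ± 0.07, adjusted p = 0.092 in the authors' deposited table).

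Promoters of the hypoxia genes were read for ACGTG, the core of the HIF response element, on both strands. RefSeq promoters (GRCm38.p6, 250 bases before to 50 after the start) matched the start of 14588 tested genes, and 23.7% of these held the core. Among hypoxia and glycolysis genes called higher it was present in 11 of 19, and among those not called in 15 of 32. Of all genes called higher, 25.6% of 500 promoters held it, and of all called lower, 26.2% of 474. Among 9075 promoters of tested genes with a mean RPKM of at least 1, 26.8% held it. The hypoxia and glycolysis lists were drawn up from prior knowledge of such genes, so their share is no independent evidence of the element. A match is only a run of letters, and the core is short and common. It is shown in capitals in 3 promoters, from Slc2a1, Egln3 and P4ha2, which were chosen after their values were seen.
Slc2a1 (chr4:119108495-119108794, plus strand): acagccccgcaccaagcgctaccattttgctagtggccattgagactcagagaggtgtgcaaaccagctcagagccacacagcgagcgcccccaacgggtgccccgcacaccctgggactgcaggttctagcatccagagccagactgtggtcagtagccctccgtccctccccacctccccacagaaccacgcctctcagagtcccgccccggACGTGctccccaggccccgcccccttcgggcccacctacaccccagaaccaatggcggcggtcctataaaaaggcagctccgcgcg
Egln3 (chr12:54203825-54204124, minus strand): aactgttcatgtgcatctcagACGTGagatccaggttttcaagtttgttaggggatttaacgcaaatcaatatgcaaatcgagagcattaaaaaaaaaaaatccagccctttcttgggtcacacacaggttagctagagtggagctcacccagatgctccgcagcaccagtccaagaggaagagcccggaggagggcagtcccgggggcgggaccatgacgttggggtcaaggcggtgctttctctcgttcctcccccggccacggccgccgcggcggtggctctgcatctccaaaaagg
P4ha2 (chr11:54100674-54100973, plus strand): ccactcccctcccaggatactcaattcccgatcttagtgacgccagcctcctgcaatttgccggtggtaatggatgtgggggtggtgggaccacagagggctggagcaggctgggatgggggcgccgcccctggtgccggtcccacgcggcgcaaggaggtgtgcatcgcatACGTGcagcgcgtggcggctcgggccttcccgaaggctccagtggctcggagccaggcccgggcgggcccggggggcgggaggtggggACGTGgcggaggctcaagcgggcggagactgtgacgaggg
Counted in bases from the start of the gene, the core begins at -36 in Slc2a1 and at -229 in Egln3, and P4ha2 has 2, at -78 and 10.

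Some genes of the matrix and of the endoplasmic reticulum rose. Over all tested genes 3.44% rose and 3.32% fell, and 9.91% were called either way at a mean RPKM of at least 1. Of 33 tested matrix and collagen genes 8 rose and 1 fell, with a median log2 fold change of 0.20. The collagen IV genes Col4a1 (12.3 in nickel, 9.31 in control) and Col4a2 (6.03 in nickel, 4.55 in control) rose by 0.44 ± 0.09 and 0.45 ± 0.12 in the authors' deposited table. Nidogen (Nid1) had 33.5 in nickel and 25.9 in control, and laminin alpha 1 (Lama1) had 14.8 in nickel and 11.9 in control (0.41 ± 0.07 and 0.35 ± 0.07 in the authors' deposited table). Laminin alpha 5 (Lama5), whose span overlaps another gene on its strand, was the one that fell, with 21.3 in nickel and 26.1 in control (-0.25 ± 0.06, authors' deposited table). Fibronectin (Fn1) did not pass, at 149 in nickel and 162 in control. Of 23 endoplasmic reticulum genes 8 rose and 1 fell, with a median of 0.18. The chaperone gene Hspa5 had 176 in nickel and 124 in control (0.54 ± 0.06), and calreticulin (Calr) had 316 in nickel and 227 in control (0.52 ± 0.06), in the authors' deposited table. The exception was Herpud1, a gene of protein degradation that ATF4 also switches on, with 4.56 in nickel and 10.7 in control (-1.18 ± 0.19, adjusted p = 3.7e-08 in the authors' deposited table).

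Genes of the amino acid response were more often lower than higher in nickel. Over 4 lists (ATF4 targets, amino acid transporters, serine and one-carbon enzymes, tRNA synthetases) 31 of 81 tested genes fell, against 3.32% of all genes, and 2 rose. Of the 73 with a mean RPKM of at least 1, 30 fell, where 546 of all 11764 such genes did. The median log2 fold change over the 81 was -0.25. Atf4 itself had an RPKM of 106 in nickel and 181 in control (-0.74 ± 0.07, adjusted p = 1.4e-24 in the authors' deposited table). Chac1, at chr2:119351242-119354327 (GRCm38), encodes a glutathione-degrading enzyme and had 3.40 in nickel and 17.6 in control (-2.33 ± 0.20, adjusted p = 7.3e-27 in the authors' deposited table). Nupr1, a stress-induced chromatin protein gene, had 10.3 in nickel and 27.7 in control (-1.40 ± 0.21, authors' deposited table). The pseudokinase gene Trib3 had 8.70 in nickel and 17 in control (-0.93 ± 0.20, authors' deposited table). In the ATF4 list 7 of 25 fell and 1 rose, the growth arrest gene Gadd45a (45.7 in nickel, 36.1 in control). Asparagine synthetase (Asns), a textbook ATF4 target, did not pass, at 165 in nickel and 182 in control. Ddit3, which encodes CHOP, stood at 6.83 in nickel and 11.2 in control (-0.68 ± 0.24, adjusted p = 0.054 in the authors' deposited table).

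Among 14 amino acid transporters 7 fell and 1 rose. This and the counts below are to be read against 3.44% higher and 3.32% lower over all tested genes. At a mean RPKM of at least 1, 9.91% were called either way. Both chains of the large neutral amino acid transporter fell, the heavy chain Slc3a2 with 69.1 in nickel and 94.3 in control (-0.41 ± 0.07) and the light chain Slc7a5 with 47.0 in nickel and 64.4 in control (-0.41 ± 0.07), in the authors' deposited table. Slc1a4, a transporter of neutral amino acids such as serine and alanine, had 8.16 in nickel and 15.3 in control (-0.87 ± 0.11, authors' deposited table). Slc38a4 was the one that rose, with 87.8 in nickel and 79.5 in control (0.18 ± 0.05, adjusted p = 0.014 in the authors' deposited table). Of 22 serine and one-carbon genes 9 fell and 0 rose. Phgdh, the first enzyme of serine synthesis, had 33.9 in nickel and 50.4 in control (-0.53 ± 0.08, authors' deposited table). Mitochondrial Mthfd2 had 36.7 in nickel and 54.0 in control (-0.52 ± 0.10, authors' deposited table). The mitochondrial PEP carboxykinase gene Pck2 had 9.22 in nickel and 16.1 in control (-0.76 ± 0.12, authors' deposited table). Threonine dehydrogenase (Tdh), on which mouse embryonic stem cells depend for one-carbon units, had 198 in nickel and 257 in control (-0.33 ± 0.06, authors' deposited table). The cytosolic enzyme gene Mthfd1 did not pass, at 131 in nickel and 125 in control. Of 20 cytosolic tRNA synthetases 8 fell and 0 rose. Serine-tRNA synthetase (Sars) had 48.1 in nickel and 71.4 in control, and asparagine-tRNA synthetase (Nars) 111 in nickel and 155 in control (-0.53 ± 0.08 and -0.44 ± 0.05 in the authors' deposited table). Kars, for lysine, did not pass, at 173 in nickel and 185 in control.

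**Figure D2:**
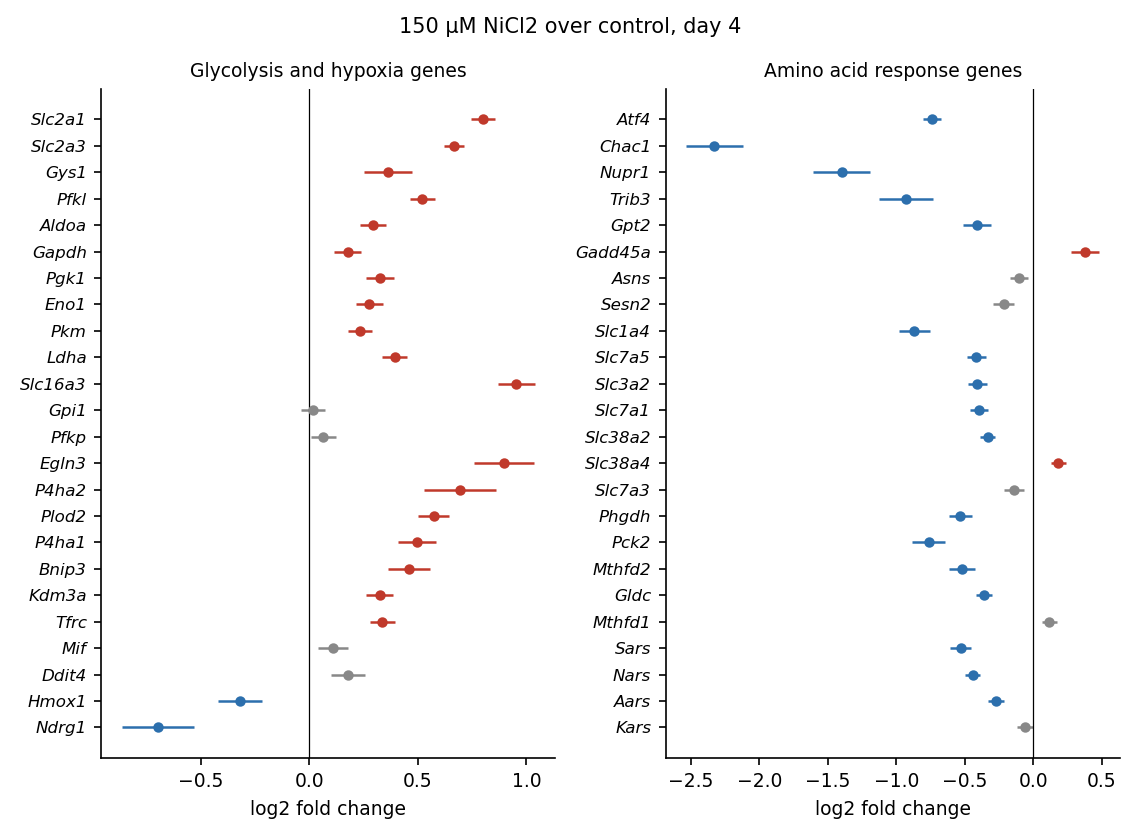
Points are the authors' log2 fold changes, 150 µM nickel over control on day 4, and bars are the implied standard errors; red and blue mark genes higher and lower at an adjusted p under 0.05, and grey marks genes that did not pass. Slc16a3, at 0.95, stands furthest right in the left panel, and Chac1, at -2.33, furthest left in the right panel.

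The ATF4 composite element, TGATGNAA, was searched on both strands of the same promoters. It was present in 2.51% of the 14588. Of the promoters of genes called lower 6.12% held it (29 of 474), and of those called higher 1.40% (7 of 500). Among amino acid response genes called lower it was present in 9 of 22, and among those not called in 7 of 37. On the gene's own strand alone the order was the other way, at 1 of 22 called lower and 3 of 37 not called. The 4 lists were drawn up from knowledge of ATF4 targets, so their share is no independent evidence of the element. The match is shown in capitals in the promoters of Chac1, Trib3 and Herpud1, chosen after their values were seen. In all 3 it lies on the opposite strand and so reads as the reverse complement.
Chac1 (chr2:119350992-119351291, plus strand): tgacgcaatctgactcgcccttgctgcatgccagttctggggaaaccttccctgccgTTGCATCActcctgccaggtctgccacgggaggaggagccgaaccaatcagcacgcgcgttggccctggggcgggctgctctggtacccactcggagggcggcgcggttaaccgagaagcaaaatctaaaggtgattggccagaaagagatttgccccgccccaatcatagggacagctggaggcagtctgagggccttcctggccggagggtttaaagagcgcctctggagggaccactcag
Trib3 (chr2:152344011-152344310, minus strand): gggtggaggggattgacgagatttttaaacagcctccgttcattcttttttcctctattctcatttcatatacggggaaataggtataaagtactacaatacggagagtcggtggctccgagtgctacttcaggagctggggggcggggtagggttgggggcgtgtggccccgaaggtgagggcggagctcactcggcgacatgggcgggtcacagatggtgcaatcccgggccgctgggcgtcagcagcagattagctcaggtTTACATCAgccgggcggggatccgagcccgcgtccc
Herpud1 (chr8:94386179-94386478, plus strand): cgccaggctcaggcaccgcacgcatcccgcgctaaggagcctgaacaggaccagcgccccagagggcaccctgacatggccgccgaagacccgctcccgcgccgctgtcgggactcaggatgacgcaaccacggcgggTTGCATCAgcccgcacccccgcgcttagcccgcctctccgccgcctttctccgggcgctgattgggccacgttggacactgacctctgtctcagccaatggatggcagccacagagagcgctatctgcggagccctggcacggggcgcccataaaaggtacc
Counted in the same way, the match begins at -193 in Chac1, at -112 in Herpud1 and at 14 in Trib3.

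Genes of naive pluripotency, an undifferentiated state of embryonic stem cells, moved in both directions. Of 32 tested genes 13 rose and 4 fell, with a median log2 fold change of 0.15. This and the LIF counts below are to be read against 3.44% higher and 3.32% lower over all tested genes. All 32 had a mean RPKM of at least 1, where 9.91% of tested genes were called either way. Calls were more frequent at higher levels. Of 2975 tested genes with a mean RPKM of 20 to 100, 206 rose and 190 fell. Of 620 with a mean RPKM over 100, 72 rose and 46 fell. The homeobox gene Nanog, at chr6:122707565-122714633 (GRCm38), had an RPKM of 282 in nickel and 168 in control (0.76 ± 0.05, adjusted p = 8.6e-48 in the authors' deposited table). Tdgf1, which encodes the Nodal co-receptor Cripto, had 842 in nickel and 546 in control (0.66 ± 0.05, authors' deposited table). The imprint guardian Zfp57 had 218 in nickel and 156 in control (0.54 ± 0.05), and the DNA oxidase gene Tet2 had 24.4 in nickel and 16.3 in control (0.62 ± 0.08), in the authors' deposited table. The members of the Klf family went different ways. Klf4 had 87.0 in nickel and 64.0 in control (0.48 ± 0.06, authors' deposited table). Klf2 had 60.9 in nickel and 86.1 in control (-0.46 ± 0.07), and Klf5 had 40.5 in nickel and 60.5 in control (-0.54 ± 0.08), in the authors' deposited table. Pou5f1, which encodes OCT4, had 777 in nickel and 695 in control (0.20 ± 0.06, adjusted p = 0.0060 in the authors' deposited table). Sox2 did not pass, at 291 in nickel and 292 in control. Among 17 genes of LIF signalling 0 rose and 2 fell, the signal transducer gene Stat3 (20.8 in nickel, 26.2 in control) and its feedback inhibitor gene Socs3 (56.0 in nickel, 66.1 in control).

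A few members of each signalling list passed, to be read against 3.44% higher and 3.32% lower over all genes. In the Nodal pathway 2 of 17 genes rose and 2 fell, and both that fell encode secreted Nodal inhibitors. Lefty1 had 59.3 in nickel and 120 in control (-0.97 ± 0.08), and Lefty2 had 47.3 in nickel and 92.0 in control (-0.92 ± 0.06), in the authors' deposited table. The ligand gene Nodal stood at 45.7 in nickel and 39.5 in control (0.25 ± 0.09, adjusted p = 0.055 in the authors' deposited table). In the WNT list 4 of 24 rose and 0 fell. The nuclear effector gene Lef1 had 6.45 in nickel and 3.39 in control (1.03 ± 0.17), and the feedback gene Axin2 had 2.59 in nickel and 1.6 in control (0.73 ± 0.22), in the authors' deposited table. Sfrp1, a secreted WNT modulator gene, had 24.5 in nickel and 13.8 in control (0.87 ± 0.09, authors' deposited table). Of 18 BMP and Id genes 2 rose and 0 fell, Bmp4 among them with 19.7 in nickel and 14.9 in control. Of 26 ERK pathway and immediate early genes 1 rose and 4 fell, among them Egr1 (8.37 in nickel, 11.6 in control) and Spry2 (37.9 in nickel, 49.6 in control). Genes of the formative and primed states, which follow the naive state in the embryo, fell 5 to 1 of 27, with a median of 0.01. The de novo DNA methyltransferase genes Dnmt3a (16.1 in nickel, 23.1 in control) and Dnmt3b (37.7 in nickel, 56.4 in control) fell by 0.48 and 0.54 on the log2 scale in the authors' deposited table. Their cofactor gene Dnmt3l was the one that rose, with 278 in nickel and 214 in control (0.41 ± 0.06, authors' deposited table). Otx2, a primed-state factor gene, did not pass, at 23.7 in nickel and 25.7 in control.

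Genes of the 2-cell-like state, which a small share of embryonic stem cells enters at any time, were higher in nickel. Of 29 tested members 18 rose and 0 fell, with a median log2 fold change of 1.54. Most carry symbols of gene families or of predicted genes. Reads of near-identical copies cannot be told apart, so their single values are uncertain. Members were split by symbol alone, and their sequences were not compared. Among the 11 with other symbols 6 rose, with a median of 1.18. These include AF067061 and AF067063, and whether they have near-identical copies was not tested. In the Zscan4 family, which is known for telomere maintenance in these cells, Zscan4d had an RPKM of 23.9 in nickel and 7.75 in control (1.66 ± 0.14, authors' deposited table). Tmem92 had 4.02 in nickel and 0.856 in control (2.28 ± 0.33, adjusted p = 1.2e-09 in the authors' deposited table). The arginase gene Arg2 had 4.47 in nickel and 0.955 in control (2.26 ± 0.38, authors' deposited table), and Zfp352 had 1.38 in nickel and 0.416 in control (1.76 ± 0.49, authors' deposited table). Of 38 germline genes 1 rose and 6 fell, with a median of -0.26, to be read against the same shares. At a mean RPKM of at least 1, 9.91% of tested genes were called either way. Piwil4, a PIWI protein gene of the male germ line, had 0.791 in nickel and 5.66 in control (-2.82 ± 0.24, adjusted p = 9.9e-29 in the authors' deposited table). Stra8, which opens meiosis, went the other way, with 23.4 in nickel and 8.74 in control (1.46 ± 0.18, authors' deposited table).

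Genes of later lineages were mostly low in both groups. Their counts are to be read against 3.44% higher and 3.32% lower over all tested genes. Of 31 tested mesoderm and endoderm factor genes 3 rose and 1 fell. Gata4, an endoderm factor gene, had 1.93 in nickel and 0.992 in control (1.00 ± 0.30, adjusted p = 0.018 in the authors' deposited table), and Foxa1 had 0.642 in nickel and 0.118 in control (2.49 ± 0.80, adjusted p = 0.028 in the authors' deposited table). Hnf4a, the liver and gut factor gene, fell to 0.909 in nickel, against 2.68 in control (-1.52 ± 0.25, authors' deposited table). Isl1 was listed at 0.151 in nickel and at 0 in control. Of 29 neural genes 2 rose and 1 fell: Pax6, the eye and forebrain factor gene, had 1.35 in nickel and 0.585 in control (1.23 ± 0.34, adjusted p = 0.0070 in the authors' deposited table), and Neurod1 had 6.36 in nickel and 9.81 in control (-0.59 ± 0.16, authors' deposited table). The second that rose was Tlx1, listed at 0.248 in nickel and at 0 in control. Of 17 trophectoderm genes 0 rose and 3 fell, among them Gata2 with 0.379 in nickel and 1.47 in control (-1.91 ± 0.41, authors' deposited table). Of 34 tested Hox genes 0 were called either way by the authors' DESeq2 test, with 1 at an unadjusted p under 0.05. Of these Hox genes 27 had a log2 fold change above 0, with a median of 1.16. Only 2 had a mean RPKM of at least 1, and the median RPKM was 0.054 in nickel and 0.025 in control. At such levels a call is hard to reach, so the lack of calls does not show that Hox genes were unchanged. Over the marker lists, summed RPKM was 48.7 in nickel and 15.7 in control for 2-cell-like cells, and 83.6 in nickel and 105.7 in control for the primed epiblast. It was 7.80 in nickel and 6.03 in control for primitive endoderm, and 1.36 in nickel and 1.44 in control for mesoderm. For neural cells it was 34.6 in nickel and 42.3 in control, and for trophectoderm 23.7 in nickel and 24.6 in control. The highest single marker made up most of these last sums. It stood at 25.1 in nickel and 29.6 in control for neural cells, and at 18.6 in nickel and 19.8 in control for trophectoderm. These sums therefore say little about the other markers.

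Most listed genes of chromatin marks were not called. The counts are to be read against 3.44% higher and 3.32% lower over all tested genes. At a mean RPKM of at least 1, 9.91% were called either way. Called DNA methylation genes counted in lists above were Dnmt3a and Dnmt3b, which fell, and Dnmt3l and Tet2, which rose. Of 36 JmjC demethylase and related dioxygenase genes 4 rose and 1 fell, with a median log2 fold change of 0.08. Besides Kdm3a, the H3K4 demethylase gene Kdm5b rose, with 106 in nickel and 88.1 in control (0.31 ± 0.05, authors' deposited table). Of 22 genes of H3K9 methylation and DNA methylation 2 rose and 2 fell: the corepressor gene Trim28 had 587 in nickel and 456 in control (0.40 ± 0.05), and the maintenance methyltransferase gene Dnmt1 had 63.6 in nickel and 77.4 in control (-0.24 ± 0.06), in the authors' deposited table. Ehmt2, an H3K9 methyltransferase gene, had 41.1 in nickel and 34.2 in control (0.31 ± 0.08, authors' deposited table). Of 29 Polycomb genes 3 rose and 1 fell, with a median of 0.01, and the catalytic subunit gene Ezh2 did not pass, at 66.6 in nickel and 68.2 in control. Of 30 imprinted genes 2 rose and 2 fell, among them Impact, with 23.4 in nickel and 38.9 in control (-0.60 ± 0.08, authors' deposited table).

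Genes of metal handling moved little. For all lists in this paragraph, the shares over all tested genes were 3.44% higher and 3.32% lower. At a mean RPKM of at least 1, 9.91% of genes were called either way. Of 15 genes of zinc and metal handling 0 rose and 1 fell. The metallothionein genes Mt1 (101 in nickel, 118 in control; -0.18 ± 0.10) and Mt2 (206 in nickel, 229 in control; -0.12 ± 0.08) did not pass in the authors' deposited table. Of 16 genes of the iron list 0 rose and 1 fell, the ferritin heavy chain gene Fth1 with 336 in nickel and 396 in control, while the iron uptake gene Tfrc, which rose, is counted in the hypoxia list. In the NRF2 and antioxidant list 4 of 28 rose and 0 fell. They were led by the selenium-dependent peroxidase genes Gpx1 (202 in nickel, 141 in control; 0.56 ± 0.08) and Gpx4 (381 in nickel, 277 in control; 0.50 ± 0.07) in the authors' deposited table. The NRF2 target gene Nqo1 did not pass, at 9.78 in nickel and 10.2 in control. Of 25 heat shock genes 4 rose and 0 fell. The inducible Hspa1b and Hspa1a, near-identical copies, were low and higher in nickel, Hspa1b at 1.28 in nickel and 0.317 in control (2.06 ± 0.46, authors' deposited table). The constitutive Hspa8, which overlaps another gene on its strand, had 704 in nickel and 569 in control (0.34 ± 0.06, authors' deposited table). Of 27 p53 target genes 4 rose and 2 fell, the cell cycle inhibitor gene Cdkn1a among the falls (33.8 in nickel, 42.7 in control). Of 26 cholesterol genes 2 rose and 0 fell. Of 35 nuclear genes of oxidative phosphorylation 0 were called either way by DESeq2 (3 at an unadjusted p under 0.05), with a median log2 fold change of 0.05. Of 13 mitochondrial genes 0 rose and 2 fell, mt-Cytb and mt-Nd2, by 0.23 and 0.18 on the log2 scale in the authors' deposited table. Of 40 genes of DNA replication and mitosis 2 rose and 4 fell, with a median of -0.03.

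Histone genes expressed only in S phase stood out from the remaining replication genes. Their mRNAs end in a stem-loop and not in a poly(A) tail, so a poly(A) library samples them poorly, and many are near-identical copies. The group was formed after its values were seen. Of 60 tested genes 55 had a log2 fold change above 0 and 12 were called higher, 0 lower, with a median of 1.66. Over all tested genes 3.44% were called higher and 3.32% lower. Their median RPKM was 1.54 in nickel and 0.411 in control, and their summed RPKM was 152 in nickel and 69.3 in control. H4c18 had 7.83 in nickel and 0.833 in control (3.27 ± 0.55, adjusted p = 3.1e-07 in the authors' deposited table), and the linker histone gene H1f2 had 11.5 in nickel and 5.47 in control (1.10 ± 0.26, authors' deposited table). Across doses on day 4 the summed RPKM was 69.3 in control, 86.3 at 100 µM, 152 at 150 µM and 111 at 200 µM. The day 6 sum was 102 at 150 µM and 87.6 in control. Of 7 histone variant genes H2ax rose (361 in nickel, 300 in control, 0.31 ± 0.05) and H2az1 fell (364 in nickel, 431 in control, -0.21 ± 0.05). The other 5 did not pass in the authors' deposited table.

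**Figure D3:**
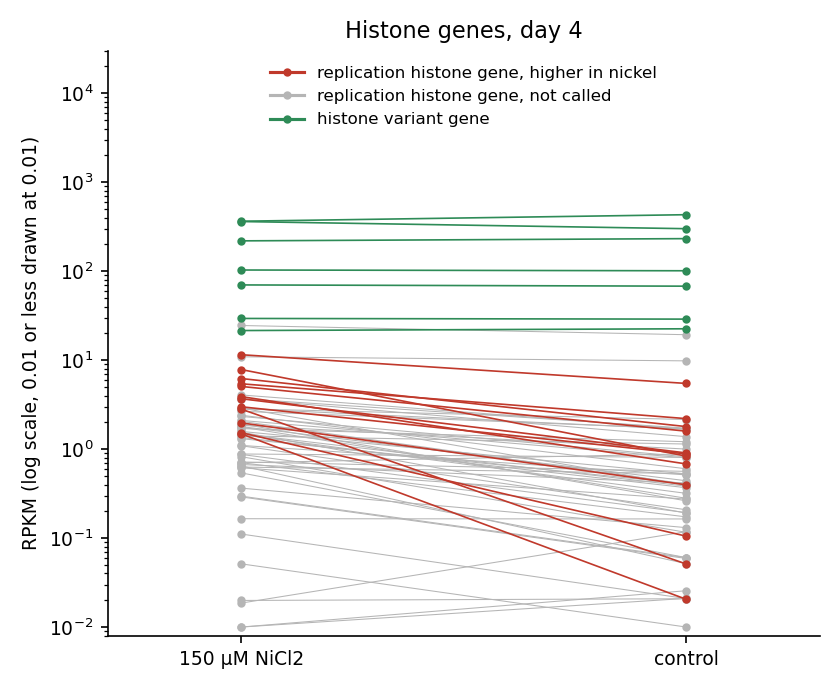
Lines join the nickel and the control RPKM of 1 gene on day 4 on a log axis, with values of 0.01 or less drawn at 0.01; red lines are the 12 S-phase histone genes called higher, grey lines the other 48 tested, and green lines 7 histone variant genes. Most S-phase genes lie higher in nickel, and the variant lines are close to flat.

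Other noncoding RNAs, most of them mitochondrial tRNAs and RNAs without a normal poly(A) tail, were grouped after their values were seen. Of 28 tested, 0 were called higher and 4 lower, against 3.44% higher and 3.32% lower over all tested genes. A log2 fold change above 0 was seen in 8, and the median was -0.43, opposite in sign to that of the histone genes. On day 6 the median of this group was 0.34, with 1 of 29 higher and 2 lower, against 2.36% and 1.99% of all genes tested. The ribosomal precursor Rn45s had an RPKM of 478 in nickel and 294 in control (0.75 ± 0.30, adjusted p = 0.11 in the authors' deposited table). The RNA of RNase MRP, Rmrp, had 3.70 in nickel and 1.82 in control, the RNA of RNase P, Rpph1, had 19.2 in nickel and 16.0 in control, and neither passed. The mitochondrial ribosomal RNA mt-Rnr2 had 202 in nickel and 306 in control (-0.56 ± 0.07, adjusted p = 4.4e-13 in the authors' deposited table), while mt-Rnr1 had 371 in nickel and 330 in control (0.21 ± 0.08, adjusted p = 0.10 in the authors' deposited table). Neat1, the long noncoding RNA of paraspeckles, had 42.4 in nickel and 84.7 in control (-0.95 ± 0.09, adjusted p = 1.1e-21 in the authors' deposited table). Whether tail capture or RNA quality had a part in the histone values was not tested.

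The smallest adjusted p-values and the largest changes included genes outside the lists. Trh, at chr6:92242061-92244650 (GRCm38), encodes the precursor of thyrotropin-releasing hormone and had an RPKM of 115 in nickel and 270 in control (-1.19 ± 0.06, adjusted p = 4.5e-93 in the authors' deposited table). Mat2a, at chr6:72432796-72439556 (GRCm38), encodes the enzyme that makes the methyl donor S-adenosylmethionine and had 207 in nickel and 104 in control (0.98 ± 0.05, adjusted p = 9.5e-74 in the authors' deposited table). The receptor tyrosine kinase gene Kit had 32.9 in nickel and 18.8 in control (0.85 ± 0.07), and the ERK phosphatase gene Dusp9 had 82.2 in nickel and 49.0 in control (0.79 ± 0.06), in the authors' deposited table. Among the 15 largest rises with a mean RPKM of at least 1, leaving out predicted genes, were 6 S-phase histone genes, H4c6, H4c18, H2bc3, H3c6, H2bc8 and H4c4, and 5 genes of the 2-cell list, Tmem92, Arg2, Tdpoz3, Usp17ld and Zscan4f. Mir5121 was the second of these, with 345 in nickel and 7.48 in control (5.57 ± 0.71, authors' deposited table). It lies inside the ribosomal protein gene Rpl13a, which did not pass (2060 in nickel, 1950 in control), and it had 175 at 150 µM and 158 in control on day 6, so its level differed between the 2 control groups. The 15 largest falls included Piwil4, Chac1, the lipolysis inhibitor gene G0s2 (0.286 in nickel, 1.74 in control) and the homeobox gene Dbx2 (0.530 in nickel, 2.06 in control; -1.93 ± 0.41 in the authors' deposited table).

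On day 6, in 4 other libraries, the same dose gave 861 called genes of 19822 tested (4.34%), 467 higher (2.36%) and 394 lower (1.99%). Of the 669 genes higher on day 4, 641 had a positive log2 fold change on day 6, 253 were called higher and 0 lower. Over all 11761 genes tested on both days with a mean RPKM of at least 1, 71.2% had the same sign on both days, and of the 10301 called on neither day 67.7% did. Those 253 are 37.8% of the genes higher on day 4. Of the 646 genes lower on day 4, 614 had a negative log2 fold change, 235 were called lower (36.4%) and 4 higher. The median log2 fold change of the higher genes was 0.44 on day 4 and 0.33 on day 6, and that of the lower genes -0.55 on day 4 and -0.41 on day 6. The genes were chosen on day 4, so these medians are no test between the days. Of the glycolysis genes 12 of 25 were higher on day 6 and 0 lower. Of the 37 further hypoxia genes 5 were higher, with a median log2 fold change of 0.06, and 0 lower. Of the 81 amino acid response genes 17 were lower and 1 higher, but of the 20 tRNA synthetases in them 1 was lower on day 6, where 8 had been on day 4. Of the 2-cell list 16 of 29 were higher and 0 lower.

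**Figure D4:**
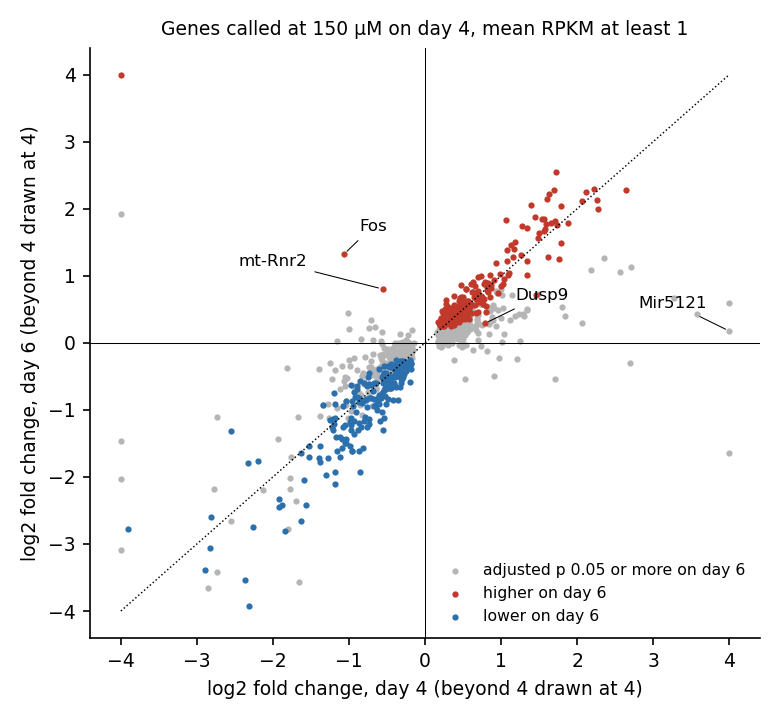
Each point is 1 of 1166 genes called at 150 µM on day 4 with a mean RPKM of at least 1, with its log2 fold change on day 4 (horizontal) and on day 6 (vertical), values beyond 4 drawn at 4 and the dotted line marking equality. Red and blue points were called higher and lower on day 6; the point in the upper left corner is 6430706D22Rik, listed at RPKM 0 in nickel on day 4 and in control on day 6.

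The difference between the days was tested for 18784 genes with a two-sided z test on the log2 fold changes, and 14 passed (0.0745%, Benjamini-Hochberg adjusted p under 0.05). The test makes few calls, with 591 genes at an unadjusted p under 0.05 where chance alone would give 939. Fos, an immediate early gene, was lower in nickel on day 4 (1.6 in nickel, 3.43 in control) and higher on day 6 (5.02 in nickel, 2.13 in control), a difference of -2.39 ± 0.41 (adjusted p = 4.0e-05) between log2 fold changes of the authors' deposited tables. Dusp9 rose more on day 4 than on day 6, at 0.79 ± 0.06 on day 4 and 0.29 ± 0.09 on day 6 in the authors' deposited tables (adjusted p of the difference = 0.0086). Khdc3, an oocyte gene of the maternal effect complex, fell less on day 4 (-0.56 ± 0.12) than on day 6 (-1.30 ± 0.13; adjusted p of the difference = 0.037, from the authors' deposited tables). The log2 fold change of Trh was lower on day 4 (-1.19 ± 0.06) than on day 6 (-0.76 ± 0.09, adjusted p of the difference = 0.031, from the authors' deposited tables). Its RPKM in nickel was 115 on both days, so the difference lay in the control level, which was 270 on day 4.

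Across doses on day 4, all 3 nickel groups share the same control libraries, so their values are given side by side. Trh had an RPKM of 270 in control, 191 at 100 µM, 115 at 150 µM and 73.3 at 200 µM. Lefty2 had 92.0 in control, 65.7 at 100 µM, 47.3 at 150 µM and 32.7 at 200 µM. Both fell at each step. Slc2a3 had 321 in control, 381 at 100 µM, 496 at 150 µM and 589 at 200 µM, and Slc2a1 had 177, 247, 300 and 362 in the same order, a rise at each step. Nanog had 168 in control, 243 at 100 µM, 282 at 150 µM and 308 at 200 µM. For other genes the level at 100 µM was already close to or past that at 150 µM. Mat2a had 104 in control, 200 at 100 µM, 207 at 150 µM and 184 at 200 µM. Chac1 had 17.6 in control, 4.74 at 100 µM, 3.40 at 150 µM and 4.09 at 200 µM, and Zscan4d had 7.75, 29.2, 23.9 and 16.2 in the same order. At 200 µM neither Mat2a (0.86 ± 0.35, adjusted p = 0.11) nor Zscan4d (1.13 ± 0.63, adjusted p = 0.29) passed in the authors' deposited table. The protease inhibitor gene A2m had 7.83 in control, 7.30 at 100 µM, 12.8 at 150 µM and 14.2 at 200 µM. The median log2 fold change of the 25 glycolysis genes was 0.16 at 100 µM, 0.28 at 150 µM and 0.29 at 200 µM. That of the 37 further hypoxia genes was 0.01 at 100 µM, 0.18 at 150 µM and 0.27 at 200 µM. For the 29 genes of the 2-cell list it was 1.69 at 100 µM, 1.54 at 150 µM and 1.30 at 200 µM, and for the 25 ATF4 targets -0.30 at 100 µM, -0.32 at 150 µM and -0.25 at 200 µM.

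The z test of the difference treated the doses as independent, which the shared control makes too cautious. Between 150 and 100 µM, 6 of 18856 genes passed (0.0318%). Trh fell more at 150 µM by 0.73 ± 0.11 on the log2 scale (adjusted p = 3.7e-06), Lefty2 by 0.47 ± 0.10 (adjusted p = 0.0098) and Piwil4 by 1.58 ± 0.33 (adjusted p = 0.0098), from the authors' deposited tables. Slc2a3 rose more at 150 µM by 0.38 ± 0.08 (adjusted p = 0.0032) and A2m by 0.81 ± 0.18 (adjusted p = 0.021), from the authors' deposited tables; Mir5121 was the sixth. Between 150 and 200 µM, 3 of 18953 genes passed (0.0158%), Rps27, Rps27rt and Lrch4, and each overlaps another gene on its strand.

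**Figure D5:**
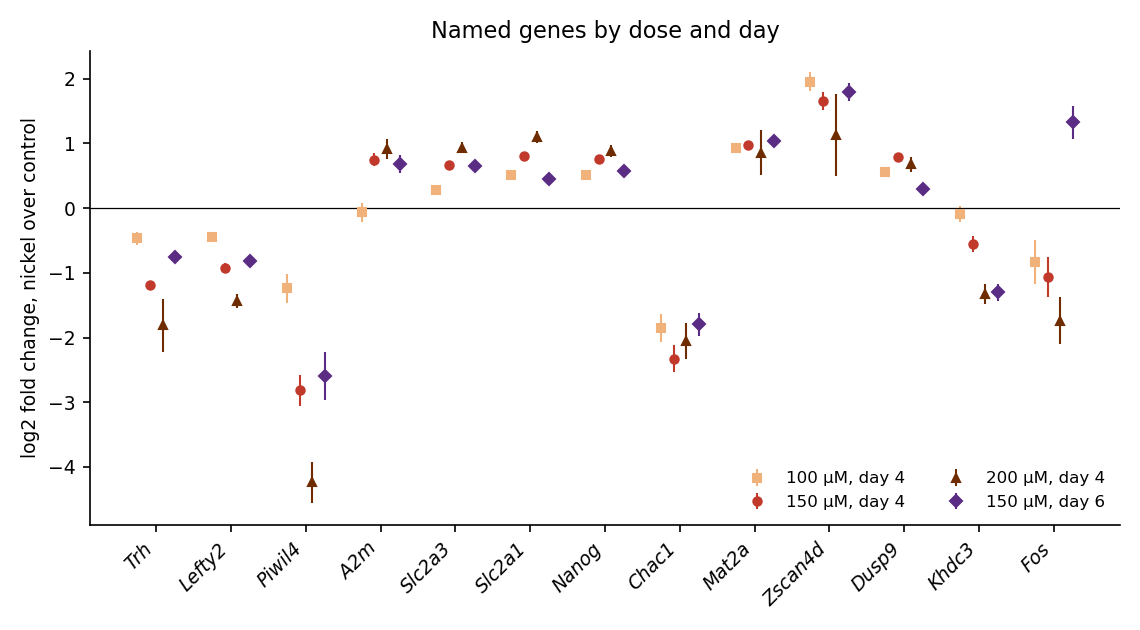
Points are the authors' log2 fold changes, nickel over control of the same day, with implied standard errors as bars, for 13 genes, with the doses of day 4 from low to high and then day 6. Trh, Lefty2 and Piwil4 lie lower with each dose, whereas Chac1 stays between -1.85 and -2.33 on day 4 and Fos lies above 0 on day 6 only.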

How the data were processed

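The kit was TruSeq Stranded mRNA, per the labels' protocols. The submitters' processing notes name STAR, DESeq2 and the GRCm38 build, with no version or setting given in the sources used here. The authors deposited, per the file headers, 1 RPKM per gene and group, and for each nickel group the log2 fold change with its p-value, raw and adjusted, all taken as given. No value per library was used, so no new test per gene could be made. The 6769 genes listed with no change at a p-value of exactly 1 counted as untested. Standard errors were implied by the log2 fold change and p-value as for a normal statistic. Differences between comparisons were tested with two-sided z tests, Benjamini-Hochberg adjusted over all genes tested in both. The calculation was checked on simulated normal fold changes with independent errors, for genes with a mean RPKM of at least 1. That check did not cover genes below this level or a shared control. Depths were found by searching for library pairs that put low RPKM values of single-exon genes (GENCODE M21) on whole reads. Computations used Python 3.11.15 with scipy 1.17.1.

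The comparison, the 34 gene lists (889 of 893 symbols matched, 7 of them by synonym) and the rules were chosen with earlier results of these data known. Named genes were the 15 largest rises and falls among called genes with a mean RPKM of at least 1 (predicted genes left out), the 12 smallest adjusted p-values, up to 6 called and 2 uncalled members per list, the markers, and up to 6 differences per direction. The text gives a part of them. Genes outside this rule, namely P4ha2, Ndrg1, Bhlhe41, Hmox1, Vegfa, Hif1a, Klf2, Klf5, Ddit3, Ezh2, Nqo1, Neat1, Rn45s, Rmrp, Rpph1, H1f2, mt-Rnr1, Rpl13a, H2ax and H2az1, were chosen after their values were seen.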

Additional observations from a re-analysis of the deposited data

Results flagged for a closer look

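The genes below had log2 fold changes that differed between 2 comparisons by the z test (Benjamini-Hochberg adjusted p under 0.05), with values from the authors' deposited tables. Between day 4 and day 6 at 150 µM, the log2 fold change was lower on day 4 for Fos (difference -2.39), D7Ertd143e (-0.88), mt-Rnr2 (-1.36), B130006D01Rik (-7.63), Pcdhga5 (-6.16) and Trh (-0.44). It was higher on day 4 for Epha4 (0.73), Gm38667 (6.13), Gm20604 (1.21), Dusp9 (0.50), Pcsk1n (1.32) and Khdc3 (0.74). D7Ertd143e, Epha4, Gm38667, Gm20604 and Pcdhga5 overlap other genes on their strand, and B130006D01Rik stood at an RPKM of 0.045 in nickel and 0.227 in control on day 4. Sv2b and 6430706D22Rik also passed but were listed at RPKM 0 in a group, so no fold is given. The mitochondrial ribosomal RNA mt-Rnr2 had an RPKM of 202 in nickel and 306 in control on day 4, and was higher in nickel on day 6 (0.80 ± 0.26, adjusted p = 0.040 in the authors' deposited table).

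Between 150 and 100 µM on day 4 the difference of log2 fold changes was -0.73 for Trh, 0.38 for Slc2a3, -1.58 for Piwil4, -0.47 for Lefty2, 0.81 for A2m and 5.12 for Mir5121. Between 150 and 200 µM it was 5.27 for Rps27, -1.02 for Rps27rt and 1.03 for Lrch4. Rps27 had an RPKM of 706 in control, 415 at 100 µM, 754 at 150 µM and 14.2 at 200 µM, while Rps27rt, which spans nearly the same bases, had 701 in control, 750 at 150 µM and 1500 at 200 µM. How reads were shared between such copies was not tested.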

How the results depend on the processing

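At an adjusted p under 0.01 the counts were 769 genes changed, 388 higher, 381 lower and 185 changed at least 2-fold. The last count fell to 174 when p-values were adjusted over genes with a mean RPKM of at least 1, and to 167 when such genes alone were counted, since many large changes lie at low expression. At an adjusted p under 0.1, 6 genes differed between 150 and 200 µM. The other planned settings kept each count within 1.5 times the value given. Of 288 named genes, the log2 fold change of 16 moved by more than their standard error with a pseudocount of 0.1, 72 with a pseudocount of 1 and 0 after centring. No called gene changed sign under these settings, while 10 of 101 uncalled ones did with either pseudocount. Of 70 list counts, 17 moved at an adjusted p under 0.01 and 7 at a mean RPKM of at least 1. Called S-phase histone genes numbered 6 at an adjusted p under 0.01, and those with a mean RPKM of at least 1 numbered 10, settings chosen after seeing the data. On the gene's strand alone, the ATF4 element was present in 4.55% of promoters of amino acid response genes called lower (1 of 22), 8.11% of those not called (3 of 37) and 1.23% of all, so the order of called and not called turned round, and the HIF core in 36.8% of hypoxia genes called higher, 28.1% of those not called and 16.7% of all. No paired analysis was possible because the tables hold 1 value per group, which also prevented leaving out replicate A or B.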
